A study of Mus musculus with 6 samples.

Results

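The myelin genes of oligodendrocytes described here are *Mbp*, *Mobp*, *Cldn11*, *Mag*, *Mog*, *Opalin*, *Cnp* and *Ermn*. They were chosen by name and make up 8 of the 24421 genes listed in the tables. All 8 passed the filter on low values, a mean of at least 0.5 CPM (counts relative to library size) over the libraries, which 15137 genes passed. RNA was sequenced from astrocytes that had been isolated from the hippocampus by magnetic-activated cell sorting (MACS) with beads against astrocyte cell surface antigen-2 (ACSA-2), in 3 PBS libraries and 3 DT libraries. All were adult male C57BL/6 mice homozygous for Siglechdtr/dtr, in which the diphtheria toxin receptor is knocked into *Siglech*, a gene of microglia, and in which Siglec-H itself is strongly reduced. The PBS group received PBS and the DT group diphtheria toxin (DT) at 50 µg/kg, injected intraperitoneally 2 days before sampling. Each library was made from the pooled hippocampi of 2 mice, and the pools came from independent experiments. The groups were compared to learn how isolated astrocytes differ once microglia have been ablated, and the myelin genes are read here in the same preparations.

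Oligodendrocytes wrap axons of the central nervous system in myelin, a stack of compacted membrane layers that allows fast conduction. Its proteins fall into those that hold the layers together, those that seal the edges, those that face the axon or the outer surface, and those that keep cytoplasmic channels open between the layers. The transcripts of some of these proteins, *Mbp* above all, are carried into the myelin sheath and translated there. Myelin debris was removed with beads, and CD11b-positive cells were depleted, before the astrocytes were bound. In a bulk library, fewer cells of a type and less RNA per cell cannot be told apart.

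The libraries held from 21704891 to 32933975 counts, and the groups overlapped in depth. *Siglech* was counted 21, 71 and 42 times in the PBS libraries and 0 times in each DT library, where a count of 0 allows up to 3 counts per library. *Atp1b2*, which encodes the antigen bound by the beads, was at 1014 ± 30.6 TPM, the length-corrected share of transcripts, in the PBS libraries and 1245 ± 73.6 TPM in the DT libraries (SD, n = 3 each), a difference of 0.28 on the log2 scale (SE 0.07, limma adjusted p = 0.207, with a call only in DESeq2 at 0.0232, within 0.0232 to 0.639 over 18 alternatives). The 10 astrocyte markers summed to between 26933 and 29164 TPM per library. The 8 myelin genes together summed to between 323 and 442 TPM, or 0.0323 to 0.0442% of all TPM. Markers of the labelled cell type were thus the more abundant in every library.

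The stretches before 4 of the genes are shown first, because *Mobp* and *Opalin* had the lowest log2 fold changes of the 8 genes and *Cnp* and *Mag* the only ones above 0. They are RefSeq sequences of build GRCm38.p6, 5′ to 3′, from 250 to 51 bases upstream of the transcript start. Capitals mark ACAAAG, a core to which SOX proteins such as SOX10 bind, and CTGGCAC or CTGGTAC, the letters bound by the myelin regulatory factor MYRF, each on either strand. *Mag* has 3 listed starts, and 1 is shown.
Mobp (chr9:120149492-120149691, + strand): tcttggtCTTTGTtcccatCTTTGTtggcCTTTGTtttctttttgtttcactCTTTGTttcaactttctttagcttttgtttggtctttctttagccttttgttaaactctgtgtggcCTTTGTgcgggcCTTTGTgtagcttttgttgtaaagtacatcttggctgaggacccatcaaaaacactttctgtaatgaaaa
Opalin (chr19:41077164-41077363, - strand): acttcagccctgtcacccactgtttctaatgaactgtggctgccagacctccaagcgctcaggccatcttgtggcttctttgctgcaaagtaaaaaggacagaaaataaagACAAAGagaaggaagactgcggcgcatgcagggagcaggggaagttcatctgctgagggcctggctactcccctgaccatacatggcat
Cnp (chr11:100574689-100574888, + strand): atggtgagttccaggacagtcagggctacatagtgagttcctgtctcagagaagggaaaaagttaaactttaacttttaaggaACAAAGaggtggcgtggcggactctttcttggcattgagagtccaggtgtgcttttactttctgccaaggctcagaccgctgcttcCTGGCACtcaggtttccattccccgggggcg
Mag (chr7:30914914-30915113, - strand): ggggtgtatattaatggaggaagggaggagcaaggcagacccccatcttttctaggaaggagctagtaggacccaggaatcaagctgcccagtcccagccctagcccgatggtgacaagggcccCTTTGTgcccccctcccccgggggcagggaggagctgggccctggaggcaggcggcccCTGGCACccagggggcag
The *Mobp* stretch held 6 matches of ACAAAG, none overlapping another, and no other of the 32851 upstream windows of 250 bases that were searched held as many. Of all windows searched, 16.5% held at least 1 match and 1.74% at least 2. *Cnp*, *Mag* and *Opalin* held 1 match each. ACAAAG was thus found before 4 of the 7 genes with a searched window and in 5 of their 9 windows. No window of *Mbp* was among those searched, so the windows did not cover every gene. Whether *Mbp* has a listed start is not read from this. CTGGCAC or CTGGTAC was found before *Cnp*, *Mag* and *Mog*, 3 of 7 genes and 4 of 9 windows, beside 5.93% of all windows. ACAATG, a second SOX core, was found before *Ermn* alone, beside 10.7% of all windows, and TATAAA before 0 of 7 genes, beside 12.4%. A gene with several windows, as *Mag* has, had more chances of a match. The *Mag* windows with matches overlap and hold the same sites, so counts of windows include these sites more than once. Shares of genes and of windows are therefore not alike. These matches describe letters and no binding was measured.

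The 8 genes spanned a wide range of levels. Per transcript length, over all 6 libraries, *Cnp* was highest with a mean of 171 TPM, followed by *Mbp* with 146 TPM and *Mobp* with 34.3 TPM. *Mag* was at 9.73 TPM, *Cldn11* at 6.70 TPM, *Ermn* at 6.21 TPM, *Opalin* at 4.20 TPM and *Mog* at 1.92 TPM, so that the highest mean was 89.2-fold the lowest. The levels of *Cnp* and *Mbp* overlapped, with *Cnp* higher in 5 of 6 libraries, and *Cldn11* exceeded *Ermn* in only 3 of 6 libraries, so neither pair can be ordered beyond its spread. *Mbp* and *Mobp*, and *Mobp* and *Mag*, did not overlap at all. In the remaining neighbouring pairs the ranges overlapped, although the first gene was the higher in 6 of 6 libraries.

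None of the 8 genes passed an adjusted p-value of 0.05 (limma on log2(CPM + 0.1), two-sided, with Benjamini-Hochberg adjustment over all genes tested). The background share of genes past this threshold was 0.713%, 108 of 15137, with 0.555% of all genes called higher and 0.159% called lower. *Mbp* alone had an unadjusted p-value under 0.05, as did 10.4% of all genes, and 4.51% of all genes had one in the lower direction. Below 0 was the log2 fold change of 6 of the 8 genes (75.0%), against 51.3% of all genes, and its median was -0.27, against -0.0052 over all genes tested. Counted reads gave 0 of 8 as well in edgeR's quasi-likelihood test, edgeR's exact test and DESeq2, with 1, 3 and 2 of the genes at an unadjusted p-value under 0.05. The fold changes are on the log2(CPM + 0.1) scale, which understates the change of genes with low counts.

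**Figure D1:**
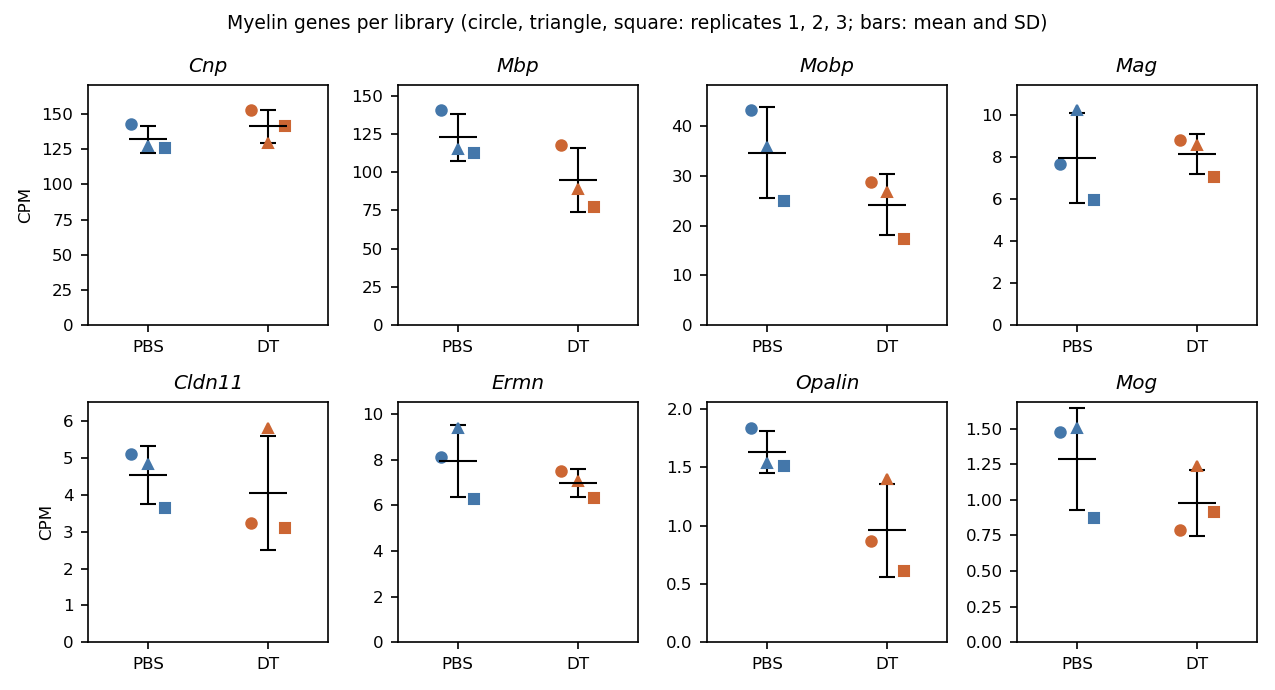
CPM of the 8 myelin genes in each library, with 1 panel per gene and its own vertical axis from 0; circles, triangles and squares are replicates 1, 2 and 3 of the PBS (blue) and DT (orange) groups, and bars give the mean and SD of 3 libraries. The groups overlap in 7 panels, and *Opalin* alone has all DT points, up to 1.40 CPM, under all PBS points, from 1.52 CPM.

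Among the genes of compact myelin, *Mbp* encodes myelin basic protein, which draws the cytoplasmic faces of the membrane together. The gene lies on the plus strand of chromosome 18 in mm10, from 82475146 to 82585637, with 16 annotated transcripts. Its level was 140.5, 115 and 113 CPM in PBS replicates 1, 2 and 3 and 118, 89.2 and 77.1 CPM in DT replicates 1, 2 and 3. DT replicate 1 lay among the PBS libraries and both other DT libraries lay below them. Per length, PBS libraries averaged 165 ± 18.7 TPM and DT libraries 127 ± 29.7 TPM (SD, n = 3 each). Limma put the log2 fold change of *Mbp* at -0.39 (SE, the standard error, 0.15, 95% interval -0.73 to -0.05, unadjusted p = 0.0309, adjusted p = 0.426), and at -0.25 without DT replicate 3. From 1767 to 3819 counts per library stood behind these values. Counting error of a single library at its group's mean count was 2.04% or less. The spread between libraries, 12.6% after PBS and 22.1% after DT, was far larger.

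*Mobp* encodes myelin-associated oligodendrocyte basic protein, a small protein of the same compacted layers. It lies on chromosome 9 from 120149707 to 120181484. Its level was 43.2, 35.9 and 25.0 CPM in PBS replicates 1, 2 and 3 and 28.7, 26.8 and 17.3 CPM in DT replicates 1, 2 and 3. PBS replicates 1 and 2 were above every DT library, while PBS replicate 3 was below DT replicates 1 and 2. For *Mobp*, DT minus PBS came to a log2 value of -0.51 (SE 0.23, 95% interval -1.05 to 0.02, limma adjusted p = 0.4996), and to -0.29 without DT replicate 3. An exon of the *Mobp* locus overlaps one of *Gm38642* on the same strand, so that reads of the pair could be shared.

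*Cldn11* encodes claudin-11, which forms the tight junctions of the myelin sheath. On chromosome 3 from 31149920 to 31164324, it has a single annotated transcript. It was at 5.11, 4.82 and 3.63 CPM in PBS replicates 1, 2 and 3 and at 3.23, 5.82 and 3.10 CPM in DT replicates 1, 2 and 3. The highest library was thus DT replicate 2 and the lowest DT replicate 3, both of the same group. The groups differed in *Cldn11* by a log2 value of -0.20 (SE 0.27, 95% interval -0.82 to 0.42, limma adjusted p = 0.848), which was -0.49 without DT replicate 2 and -0.04 without DT replicate 3.

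Among the proteins of the myelin surface, *Mag* encodes myelin-associated glycoprotein, the adhesion molecule of the innermost layer that faces the axon. On chromosome 7 (minus strand), it runs from 30899176 to 30914873. It was at 7.64, 10.2 and 5.97 CPM in PBS replicates 1, 2 and 3 and at 8.82, 8.55 and 7.07 CPM in DT replicates 1, 2 and 3. All DT libraries lay inside the range of the PBS libraries. For *Mag*, the log2 fold change was 0.06 (SE 0.21, 95% interval -0.41 to 0.53, limma adjusted p = 0.949) and turned to -0.12 without PBS replicate 3.

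*Mog* encodes myelin oligodendrocyte glycoprotein, which sits on the outermost surface and is a target of autoimmune demyelination. On chromosome 17 (minus strand), it runs from 37010743 to 37023398. It was counted only 32, 50 and 19 times in PBS replicates 1, 2 and 3 and 18, 38 and 21 times in DT replicates 1, 2 and 3, or 1.47, 1.51, 0.87, 0.79, 1.24 and 0.92 CPM. The groups overlapped, with PBS replicate 3 among the DT libraries. In *Mog*, the log2 fold change stood at -0.34 (SE 0.34, 95% interval -1.11 to 0.43, limma adjusted p = 0.775), with a range of -0.58, without PBS replicate 3, to -0.21, without DT replicate 1. Counting error alone, for a single library at its group's mean count, amounted to 17.2% after PBS and 19.7% after DT.

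*Opalin* encodes a transmembrane glycoprotein of the oligodendrocyte surface. On chromosome 19 (minus strand), it runs from 41061710 to 41077113. Its counts were 40, 51 and 33 in PBS replicates 1, 2 and 3 and 20, 43 and 14 in DT replicates 1, 2 and 3, or 1.84, 1.54, 1.52, 0.87, 1.40 and 0.61 CPM. It was the 1 gene of the 8 whose groups did not overlap, a pattern seen in 16.3% of all genes tested and, in the lower direction, in 7.57%, and DT replicate 2 came close to the PBS libraries. DT minus PBS for *Opalin* was a log2 value of -0.77 (SE 0.34, 95% interval -1.55 to 0.01, limma adjusted p = 0.483). The spread between the DT libraries, 41.7%, exceeded their counting error of 19.7%, whereas the PBS libraries varied by 11.2%, less than their counting error of 15.6%.

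Among the genes of the cytoplasmic face, *Cnp* encodes 2′,3′-cyclic nucleotide 3′-phosphodiesterase, an enzyme that keeps cytoplasmic channels open within myelin. It lies on the plus strand of chromosome 11 from 100574904 to 100591729. It was at 143, 128 and 126 CPM in PBS replicates 1, 2 and 3 and at 153, 129 and 142 CPM in DT replicates 1, 2 and 3. Every DT library lay above PBS replicates 2 and 3, and PBS replicate 1 above DT replicates 2 and 3. For *Cnp*, the log2 fold change came out at 0.10 (SE 0.08, 95% interval -0.09 to 0.28, limma adjusted p = 0.734), the narrowest interval of the 8 genes, and ranged from 0.04 without DT replicate 1 to 0.16 without DT replicate 2.

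*Ermn* encodes ermin, a protein of late oligodendrocytes that binds the actin cytoskeleton. On chromosome 2 (minus strand), it runs from 58045113 to 58052864. It was at 8.10, 9.41 and 6.29 CPM in PBS replicates 1, 2 and 3 and at 7.51, 7.08 and 6.32 CPM in DT replicates 1, 2 and 3. All DT libraries lay inside the range of the PBS libraries. *Ermn* had a log2 fold change of -0.17 (SE 0.18, 95% interval -0.57 to 0.23, limma adjusted p = 0.787), which was -0.04 without PBS replicate 2 and -0.32 without PBS replicate 3. Exons of *Cnp* and *Ermn* overlap those of *Dnajc7* and *Galnt5* on the other strand, and the reads were mapped with strand information.

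**Figure D2:**
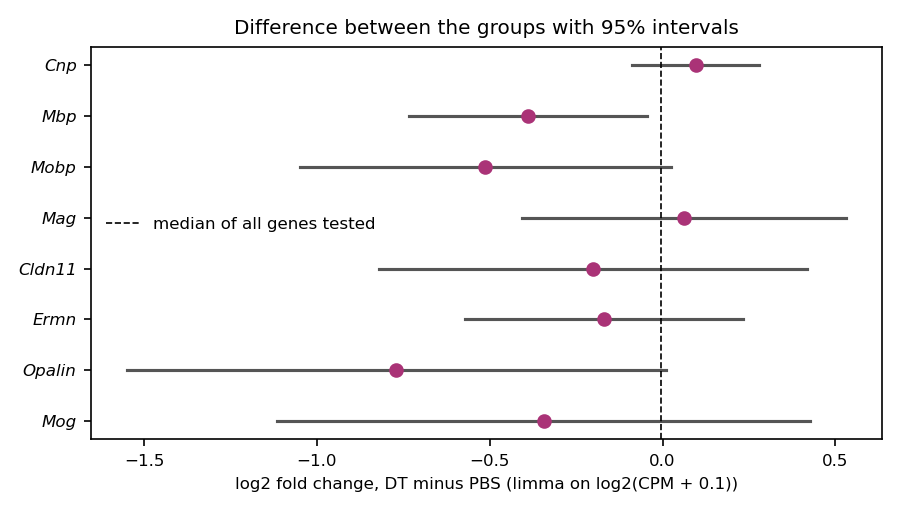
Log2 fold changes of the 8 myelin genes (DT minus PBS, horizontal axis, log2 scale) with 95% intervals from limma; the dashed line is the median over all genes tested, -0.0052. Points lie from -0.77 (*Opalin*) to 0.10 (*Cnp*), and the interval of *Mbp* alone ends below 0.

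*Cnp* followed the other 7 genes less closely over the libraries, an observation made after the values were seen and given with no test. The 21 pairs that can be formed without *Cnp* all had positive correlations of log2(CPM + 0.1) over the 6 libraries, from 0.09 to 0.88 with a median of 0.63. The highest was that of *Mbp* with *Mobp*, r = 0.88. The 7 pairs with *Cnp* had correlations from -0.52 to 0.14 with a median of -0.01, and 2 of them were positive. With the group means subtracted, *Mbp* and *Cnp* had r = 0.71, against 0.14 before. *Cnp* then had r = 0.42 with *Mobp*, 0.23 with *Ermn*, 0.06 with *Mag*, -0.16 with *Mog*, -0.29 with *Opalin* and -0.37 with *Cldn11*. *Mbp* with *Mog*, a pair without *Cnp*, went from 0.32 to -0.04. The points share depth, library preparation and cell makeup, so these are descriptions over 6 libraries. PBS replicate 1 was the highest library for *Mbp*, *Mobp* and *Opalin*, and PBS replicate 2 for *Mag*, *Mog* and *Ermn*. DT replicate 3 was the lowest for *Mbp*, *Mobp*, *Cldn11* and *Opalin*, and PBS replicate 3 for *Mag*, *Cnp* and *Ermn*.

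**Figure D3:**
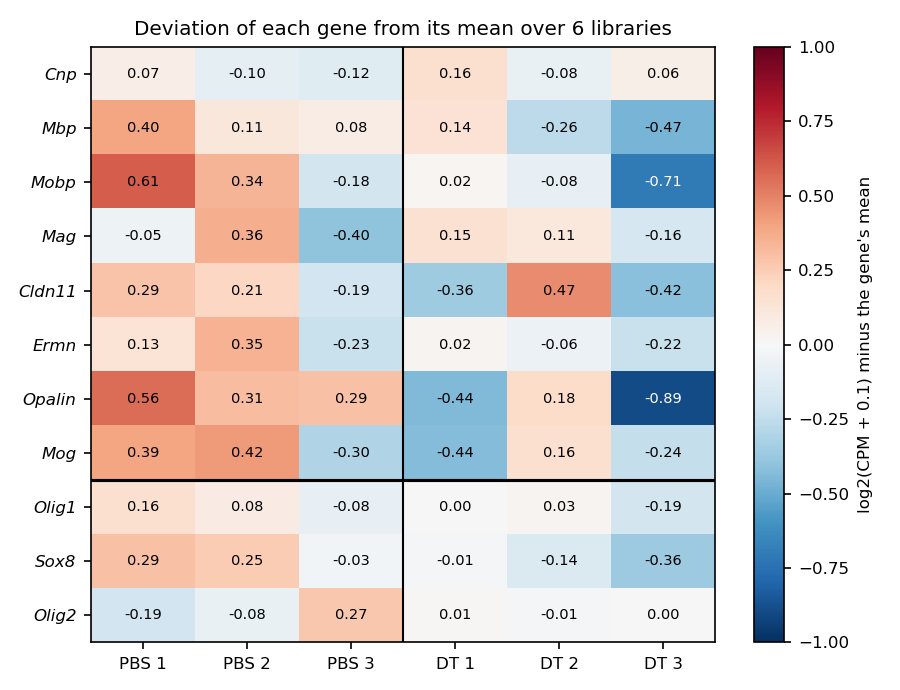
Deviation of log2(CPM + 0.1) from each gene's mean over 6 libraries, in columns for the libraries and rows for the 8 myelin genes and, under the line, *Olig1*, *Sox8* and *Olig2*; red is above and blue below the mean, and the number in each cell is the deviation. *Opalin* reaches -0.89 and *Mobp* -0.71 in DT replicate 3, while *Cnp* stays within 0.16 of its mean.

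The shares of the most abundant genes in the summed CPM of the 8 were looked at after the values were seen. *Mbp* made up 37.6 to 40.0% of the CPM of the 8 genes after PBS and 30.3 to 36.8% after DT. *Cnp* made up 40.7 to 44.6% after PBS and 47.6 to 55.8% after DT. The shares of these genes did not overlap between the groups, and those of the other 6 genes did. Shares of one sum move against each other, and *Mbp* and *Cnp* together held most of it. In TPM, the ratio of *Mbp* to *Cnp* was 0.964 to 1.07 after PBS and 0.563 to 0.849 after DT. Of the 28 ratios in CPM between pairs of the genes, 6 did not overlap between the groups. Levels of single genes did not overlap in 16.3% of all genes tested. That is no background for shares or ratios, for which none was computed. The ratios share genes, nothing is read from the count of 6, and no test was made of these shares and ratios.

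Summed over the 8 genes, the level was 442, 395 and 366 TPM in PBS replicates 1, 2 and 3 and 407, 351 and 323 TPM in DT replicates 1, 2 and 3. The groups overlapped, with means of 401 ± 38.6 TPM and 360.1 ± 42.5 TPM (SD, n = 3 each). Without *Cnp*, the sum was 268, 234 and 208 TPM after PBS and 218, 185 and 143 TPM after DT, a ratio of means of 0.770, and DT replicate 1 lay among the PBS libraries. DT replicate 3 held the lowest sum in either case.

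Other genes of the oligodendrocyte lineage were read from lists fixed by name. Of 17 other genes of the myelin membrane, its adhesion molecules and lipids, 17 were tested, 13 had a log2 fold change below 0 and 4 above, and 0 passed the threshold in limma, with 5 at an unadjusted p-value under 0.05. The median was -0.26, and became -0.34 without DT replicate 2 and -0.15 without DT replicate 3. Past the threshold was 1 gene in edgeR's exact test and in DESeq2, *Nfasc*, and 1 gene in limma without DT replicate 2, *Mal*, both named after their values were seen. *Omg*, a glycoprotein that neurons also make, was at 284 ± 6.22 TPM in the PBS libraries and 267 ± 28.5 TPM in the DT libraries (SD, n = 3 each). *Jam3*, a junctional adhesion molecule, was at 91.0 ± 5.51 TPM and 92.4 ± 6.48 TPM (SD, n = 3 each), and its log2 fold change of 0.01 changed sign without PBS replicate 2 or DT replicate 3.

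Of 20 other genes of mature oligodendrocytes, 17 were tested, 12 below 0 and 5 above, with 0 past the threshold in limma, 4 at an unadjusted p-value under 0.05 and a median log2 fold change of -0.08 that became -0.15 without DT replicate 2. *Klk6*, which encodes a protease of mature oligodendrocytes, had no count in any library. The 3 most abundant were *Car2*, the enzyme carbonic anhydrase 2, *Gpr37*, a receptor, and *Apod*, a lipid carrier. *Car2* was at 803 ± 30.7 TPM in the PBS libraries and 659.9 ± 72.0 TPM in the DT libraries (SD, n = 3 each), with no overlap and -0.30 on the log2 scale (SE 0.09, limma adjusted p = 0.280; 0.0363 without DT replicate 1, within 0.0363 to 0.636 over the alternatives). Limma gave *Gpr37* a log2 value of -0.12 (adjusted p = 0.700) and *Apod* one of 0.06 (adjusted p = 0.966), and the sign of *Apod* turned without PBS replicate 2 or 3 or DT replicate 1.

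Of 9 transcription factors of the lineage, 7 were below 0 and 2 above, 0 passed the threshold in limma, 2 had an unadjusted p-value under 0.05, and the median was -0.25. This median became -0.096 without PBS replicate 1 and -0.17 without PBS replicate 3 or without DT replicate 1. *Sox8*, a partner of SOX10 in the lineage, was at 127 ± 14.6 TPM in the PBS libraries and 101 ± 11.1 TPM in the DT libraries (SD, n = 3 each), with -0.34 on the log2 scale (SE 0.11, limma adjusted p = 0.341). *Olig1* stood at -0.10 (limma adjusted p = 0.745). *Olig2*, which astrocyte progenitors also express, was at 63.2 ± 11.2 TPM and 63.1 ± 0.71 TPM (SD, n = 3 each), with a log2 fold change of 0.00033 whose sign turned with quantile normalization, without some of the libraries and in the count tests.

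Of 8 genes of newly formed oligodendrocytes, 7 were tested, 4 below 0 and 3 above, with 0 past the threshold in limma, 3 at an unadjusted p-value under 0.05 and a median of -0.03. *Itpr2*, a calcium channel of internal stores, and *Fyn*, a kinase, had log2 fold changes of 0.07 and -0.03 (adjusted p = 0.847 and 0.875 from limma). *Gpr17*, a receptor of cells about to mature, was at 71.1, 49.8 and 61.6 CPM in the PBS libraries and 29.6, 28.8 and 42.3 CPM in the DT libraries. The groups did not overlap, and DT minus PBS was -0.86 on the log2 scale (SE 0.17, limma adjusted p = 0.0875). It passed the threshold in 3 of 18 alternatives, namely edgeR's exact test, DESeq2 and limma without DT replicate 3, within adjusted p-values of 8.13e-05 to 0.466.

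Of 12 genes of oligodendrocyte precursors, 10 were below 0 and 2 above, 6 had an unadjusted p-value under 0.05, and the median log2 fold change was -0.31. *Pcdh15*, a protocadherin, was the 1 gene of all these lists past the threshold in limma, while edgeR's exact test and DESeq2 each called 3 precursor genes. It went from 28.6, 26.8 and 28.0 CPM in the PBS libraries to 17.2, 19.2 and 18.8 CPM in the DT libraries, so that it fell by 0.59 on the log2 scale (SE 0.09, limma adjusted p = 0.0238). This call was made in 8 of 18 alternatives and was lost without any 1 of the 6 libraries (adjusted p from 0.0700 to 0.0967), within 4.09e-05 to 0.200 over the alternatives. *Pdgfra*, the receptor for the precursors' growth factor, was at 58.4 ± 9.78 TPM in the PBS libraries and 40.6 ± 3.98 TPM in the DT libraries (SD, n = 3 each), with -0.53 on the log2 scale (limma adjusted p = 0.184). It passed the threshold in 3 of 18 alternatives, edgeR's exact test, DESeq2 and limma without PBS replicate 2, within 0.00556 to 0.593. *Matn4*, a matrilin, was the third gene called by both of these count tests, and is named after its values were seen. *Xylt1*, a xylosyltransferase, and *Sox6*, a transcription factor, had log2 fold changes of -0.11 and -0.15 (adjusted p = 0.739 and 0.839 from limma). The difference between the lists was not tested.

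Of 7 genes of peripheral myelin, which Schwann cells make, 4 were tested, 3 above 0 and 1 below. In limma 0 passed the threshold, with 1 at an unadjusted p-value under 0.05. The median log2 fold change was 0.29, and became 0.11 without DT replicate 2. It turned to -0.22 with a mean CPM of at least 2, a filter that kept *Drp2* alone. *Drp2*, a dystrophin-related protein, was at 33.6 ± 1.34 TPM in the PBS libraries and 29.1 ± 2.12 TPM in the DT libraries (SD, n = 3 each), with -0.22 on the log2 scale (limma adjusted p = 0.341). *Cldn19*, a claudin, and *Egr2*, the transcription factor of Schwann cell myelination, were near 1 TPM, at means of 1.11 and 1.01 TPM.

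**Figure D4:**
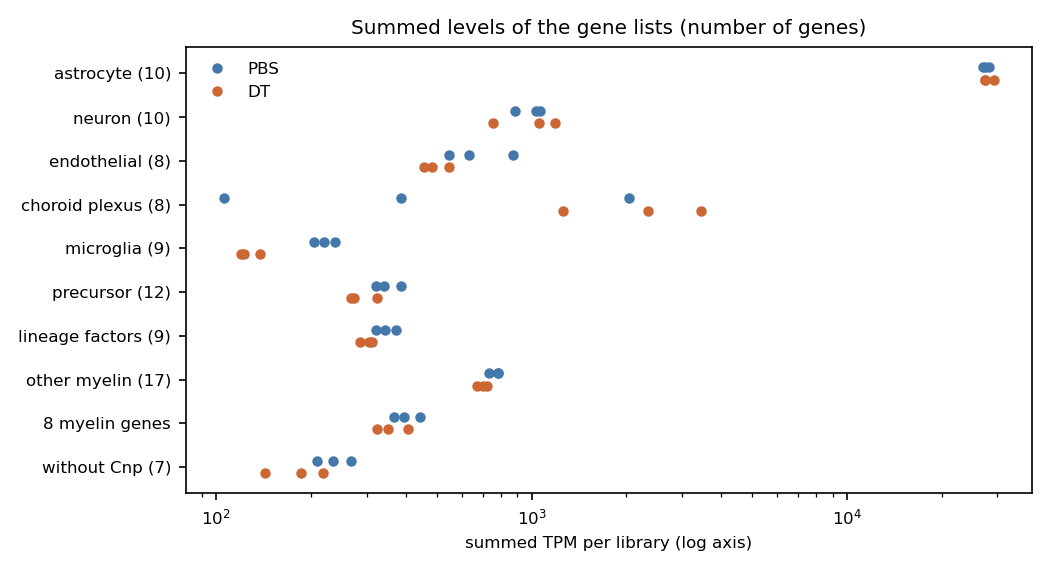
Summed TPM per library (horizontal log axis) of the 8 myelin genes, of the same genes without *Cnp*, and of lists of other genes, with the number of genes in brackets; blue points are PBS and orange points DT libraries. The 8 genes lie between 323 and 442 TPM with overlapping groups, and the astrocyte markers between 26933 and 29164 TPM.

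Markers of other cell types were summed beside the myelin genes. The 10 neuron markers lay at 887 to 1061 TPM after PBS and 752 to 1189 TPM after DT. The 8 endothelial markers lay at 549 to 872 TPM after PBS and 455 to 546 TPM after DT, all 8 with a log2 fold change below 0. The 9 microglia markers lay at 204 to 238 TPM after PBS and 119 to 138 TPM after DT, and 6 of them fell past the threshold. The 8 choroid plexus markers lay at 106 to 2031 TPM after PBS and 1254 to 3436 TPM after DT. Apart from *Siglech* in the DT libraries, no marker of these lists was at 0 throughout a group. Of the lineage lists, the other myelin genes summed to 733 to 784 TPM after PBS and 669 to 721 TPM after DT, without overlap in TPM but with overlap in CPM. The same held for the other genes of mature oligodendrocytes, at 1327 to 1363 TPM and 1147 to 1286 TPM. The transcription factors summed to 321 to 373 TPM and 285 to 312 TPM, without overlap in either unit. The precursor genes lay at 321 to 386 TPM and 267 to 323 TPM and the peripheral myelin genes at 35.5 to 37.4 TPM and 30.2 to 35.7 TPM, both with overlap in TPM and without it in CPM. The genes of newly formed oligodendrocytes lay at 316 to 359 TPM and 317 to 335 TPM and overlapped in both. A single gene could hold much of such a sum. *Car2* held a mean of 803 TPM after PBS and 660 TPM after DT in the list of mature oligodendrocytes. *Itpr2* held 119 and 126 TPM in that of newly formed ones. Which cells these transcripts came from was not tested. The part of the cell makeup of the preparations in the values of the myelin genes was not tested.

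Genes with a pattern like that of the 8 were ranked by Pearson correlation of log2(CPM + 0.1) with the mean standardised profile of the 8 genes over 6 libraries, among 11787 genes with a mean of at least 5 CPM. The mean profile was 0.89, 0.74 and -0.62 SD in PBS replicates 1, 2 and 3 and -0.04, 0.07 and -1.04 SD in DT replicates 1, 2 and 3. The 10 genes most like it were *Caprin1*, *Avl9*, *Dmpk*, *Zmym2*, *D3Ertd254e*, *Ndufc1*, *Dnah7b*, *Xrn2*, *Rapgef3* and *Amer2*, with r from 0.99 to 0.98. None belongs to the lists used here, and with group means subtracted 2 of the 10 were again among the first 10. *Olig1* ranked 12 (r = 0.98) and *Sox8* 234 (r = 0.90), while *Olig2* had r = -0.70. These are descriptions over 6 libraries that share depth and cell makeup.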

How the data were processed

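RNA-seq of MACS-isolated hippocampal astrocytes from Siglechdtr/dtr mice comprised 3 PBS and 3 DT libraries. According to the methods and labels, the authors used Trim Galore 0.5.0, FastQC 0.11.8, HISAT2 2.1.0 (mm10, strand-specific), BEDTools 2.25.0 to remove rDNA reads, StringTie 1.3.5 and edgeR 3.24.3 in R 3.5.1. The authors deposited CPM and TPM per gene and library. The deposited CPM signal is relative to library sizes scaled by factors of 0.974 to 1.02, whereas plain CPM had been assumed. Their steps gave whole counts for 100% of values (within 0.1 count). The 3 columns in either table with the authors' own comparison (p-value, q-value and log2 fold change, as deposited) were not used. Names of 27 genes read as dates, and 4 rows with repeated names were given no TPM.

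log2(CPM + 0.1) was compared, for genes averaging 0.5 CPM or more, with limma 3.58.1 in R 4.3.3 (variance trend, two-sided, Benjamini-Hochberg adjustment, threshold 0.05). The alternatives were other pseudocounts, filters, scalings, TPM, no trend, a replicate block, each library left out, and edgeR 4.0.16 and DESeq2 1.42.0 on the recovered counts. The fits were tested on simulated data. Counting error is the Poisson error of a single library at the mean count of its group, and p-values measure the spread between pools of 2 mice. Coordinates are those of GENCODE M21.

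The genes and lists were chosen with earlier results of these data known. Named are the 8 genes, lineage list genes past the threshold and otherwise the 3 with the highest mean TPM per list, the 10 most alike genes, *Atp1b2* and *Siglech*; a result this rule would name is not reported here. Further genes were chosen after their values were seen, namely *Klk6*, *Mal*, *Matn4*, *Nkx6-2* and *Nfasc*.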

Additional observations from a re-analysis of the deposited data

How the results depend on the processing

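Under all 18 alternatives, 0 of the 8 genes passed the threshold. *Mog* and *Opalin* fell under a mean CPM of at least 2. The sign of 7 genes held in every alternative, and that of *Mag* turned without PBS replicate 3 (range -0.12 to 0.26 with 1 library left out). Leaving out 1 library, the median of the 8 genes ranged from -0.42 to -0.18, with 6 to 7 genes lower. The low counts of *Mog* and *Opalin* limit what could be detected for them. Where a value changed, the cause was not tested.

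Over all genes, 84 were higher and 24 lower. These counts became 5 and 1 with no filter on low values, 35 and 11 without the variance trend, 191 and 72 with edgeR's exact test, and 227 and 98 with DESeq2. Leaving out 1 library gave 39 to 72 higher and 9 to 20 lower. Without DT replicates 1 and 2, 39 and 40 genes were higher. Lower genes numbered 11 without PBS replicate 1, 9 without PBS replicate 2, and 10 without PBS replicate 3 or DT replicate 2.

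Other log2 fold changes that reversed in fits without 1 library ranged from -0.048 to 0.065 for *Jam3*, from -0.19 to 0.36 for *Apod*, from -0.10 to 0.14 for *Olig2*, from -0.013 to 0.19 for *Itpr2*, from -0.068 to 0.42 for *Egr2* and from -1.50 to 0.63 for *Nkx6-2*. *Olig2* was also at -0.0018 with quantile normalization, -0.0098 with edgeR's quasi-likelihood test, -0.0099 with its exact test and -0.011 with DESeq2. *Siglech*, called at -4.08, lost its call with no filter on low values and without PBS replicate 2 or 3. With 0 counts in each DT library, the size of this value depends on the 0.1 CPM added. Over the alternatives it ranged from -8.44 to -1.39.

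Neither methods nor labels say what a replicate number stands for. Deviations from the group means correlated at 0.115, 0.0105 and 0.118 for replicates 1, 2 and 3, and at -0.124 to 0.0115 between libraries of unlike number. The numbers were not taken as pairs because their meaning is not given, and these correlations do not settle it. Between same-numbered libraries, *Mbp*, *Mobp*, *Opalin* and the summed TPM of the 8 genes were lower after DT each time. *Cnp* was higher each time, and the other genes differed in direction. A replicate block gave 79 higher and 30 lower genes, 0 of the 8 genes passed the threshold, the adjusted p-values were 0.0530 for *Mobp* (log2 fold change -0.51) and 0.0751 for *Mbp* (-0.39), and *Pcdh15* lost its call (adjusted p = 0.0512).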

Other observations

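Among the other myelin genes, chosen after their values were seen, *Mal*, which encodes a proteolipid that sorts membrane to myelin, was at 46.1, 39.4 and 48.5 CPM in PBS replicates 1, 2 and 3 and at 8.34, 36.3 and 10.1 CPM in DT replicates 1, 2 and 3. DT replicate 2 lay near the PBS libraries, and both others far below them. The log2 fold change of *Mal* was -1.61 (limma adjusted p = 0.270), and without DT replicate 2 it was -2.27 (adjusted p = 0.00138, within 0.00138 to 0.697 over the alternatives).

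*Nfasc*, the neurofascin gene, whose product neurons also make, was at 95.7, 88.4 and 63.9 CPM in the PBS libraries and at 123, 138 and 126 CPM in the DT libraries. The groups differed by 0.66 on the log2 scale (SE 0.14, limma adjusted p = 0.105), and the groups did not overlap. It passed the threshold in edgeR's exact test and DESeq2, within adjusted p-values of 0.000307 to 0.484 over the alternatives.

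*Nkx6-2*, a transcription factor of the lineage, was at 19.7 CPM in PBS replicate 1 and at 0.94 and 1.52 CPM in PBS replicates 2 and 3, against 1.14, 1.69 and 3.53 CPM in the DT libraries. Its log2 fold change of -0.68 (limma adjusted p = 0.858) became 0.63 without PBS replicate 1.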
